A study of Mus musculus with 18 samples.

Results

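Leucine starvation was compared with arginine starvation in wild-type E14 cells, a line of mouse embryonic stem cells. The comparison took the 3 libraries labelled Wt_Leu and the 3 labelled Wt_Arg, chosen by their labels alone, which are 6 of the 18 libraries of the series. The study starved wild-type cells and cells without GCN2 (Eif2ak4-/-) of either amino acid for 3 h and sequenced their polyadenylated RNA, and each of its 6 groups held 3 libraries. All groups were grown on gelatin in serum-containing medium with leukaemia inhibitory factor, per the labels' protocols. Both starved groups then received a SILAC medium, which can be made without a chosen amino acid, supplemented with lysine, glucose, GlutaMAX, leukaemia inhibitory factor and 5% dialyzed serum. One group lacked L-leucine and the other L-arginine, and wild-type unstarved cells (Wt_Unstarved, 3 libraries) received the same base with every amino acid. The labels call the cells of these 3 groups wild type and name no clone. Whether the 3 libraries of a group stem from different cultures is not stated in the labels. Each p-value is therefore relative to the scatter of these libraries, and part or all of that scatter may be technical.

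Cells register a missing amino acid through at least a pair of pathways. GCN2, a kinase encoded by Eif2ak4, binds uncharged transfer RNA and phosphorylates eIF2α, which slows general translation and favours translation of ATF4, a transcription factor of amino acid transport and synthesis genes. This is called the integrated stress response (ISR). The kinase complex mTORC1 is held at the lysosome by Rag GTPases, and separate sensor proteins report each amino acid to it: Sestrins bind leucine, and CASTOR1 binds arginine. When mTORC1 is inactive, the factors TFEB and TFE3 enter the nucleus and raise lysosomal genes.

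Total counts, in units of 1 M reads, were 24.7 ± 5.71 in leucine-starved and 28.9 ± 3.44 in arginine-starved cells (SD, n = 3 each; exact two-sided permutation test without pairing, p = 0.3, where the smallest p that 3 against 3 can give is 0.1). Each leucine-starved library was nevertheless smaller than the arginine-starved library of its number (21.3 against 28.1, 31.3 against 32.7 and 21.6 against 26.0), and so was its number of genes with a count. The part of depth in the results was not tested. Mitochondrial transcripts took 2.66% ± 0.269 and 2.53% ± 0.217 of the counts (SD, n = 3 each). Transcripts of replication-dependent histones took 0.00521% ± 0.000289 and 0.00599% ± 0.000298, lower in each leucine-starved library than in any arginine-starved one (exact permutation p = 0.1), and the part of RNA quality in the results was not tested. All 10 embryonic stem cell markers were detected in both groups. Their summed level was 7560 to 8290 CPM with leucine starvation and 7050 to 7650 CPM with arginine starvation, where CPM is the read count scaled to library size after normalization between libraries. Zfp42 and Klf2 were the 2 of these 10 that differed, both higher with leucine starvation. Summed fibroblast markers overlapped (40.4 to 51.4 and 41.4 to 48.8 CPM, 5 of 8 tested). Primitive endoderm and mesoderm markers overlapped as well. Summed trophoblast markers lay higher with leucine starvation (11.6 to 12.5 against 10.4 to 11.1 CPM, 3 of 4 tested), though each marker by itself overlapped. The sum of the neural markers Sox1 and Pax6 lay lower (16.0 to 16.8 against 18.1 to 18.8 CPM), though Pax6 by itself overlapped. No marker of these 5 other cell types passed the test with edgeR's quasi-likelihood test, and none was at 0 in all 6 libraries. The part of cell makeup in the results was not tested, and in bulk RNA fewer cells of a type and less RNA per cell cannot be told apart.

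On the first principal component of log2 CPM over the 9 wild-type libraries, which carried 48.0% of the variance, the unstarved libraries lay at 31.0 to 38.0. The leucine-starved libraries lay between -12.2 and -7.87, and the arginine-starved libraries farther out, between -24.9 and -23.4. Component 3 (10.4%) separated both starvations, with 11.1 to 21.8 for leucine and -14.5 to -7.89 for arginine. Component 2 (12.5%) ordered the libraries by replicate number.

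**Figure D1:**
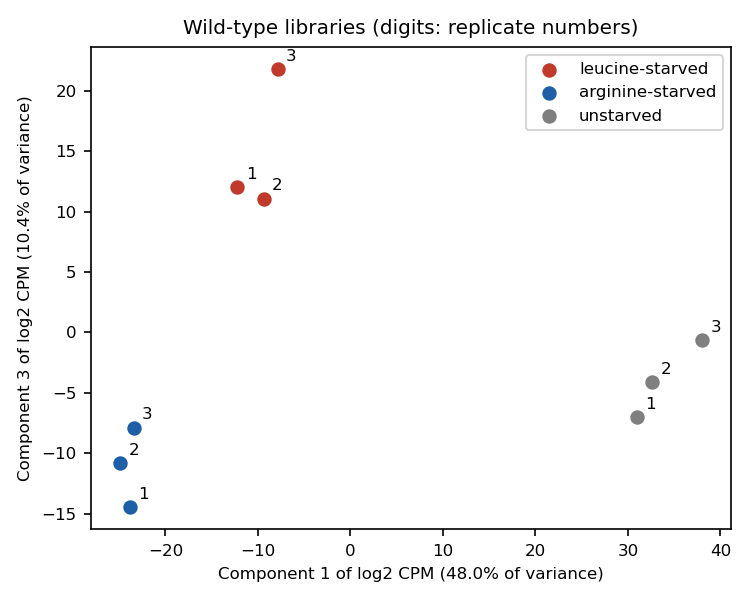
Principal component 1 against component 3 of log2 CPM in the 9 wild-type libraries. Each point is 1 library with its replicate number; the 3 arginine-starved libraries (blue) lie farther from the unstarved ones (grey) on the horizontal axis than the 3 leucine-starved libraries (red), and the vertical axis separates both starvations.

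Of 16140 genes tested, 1615 differed between the starvations at an adjusted p under 0.05 (10.0%; edgeR's quasi-likelihood test with Benjamini-Hochberg adjustment, used for every adjusted p below unless another tool is named). Of these, 847 were higher with leucine starvation (5.25% of the genes tested) and 768 higher with arginine starvation (4.76%). Scaling by library size alone turned this split to 760 and 812. The differences were small. A log2 fold change (leucine over arginine) of at least 1 in size was reached by 13 genes higher with leucine starvation and 16 higher with arginine starvation, and the middle 50% of all genes lay between -0.14 and 0.14. A fit with the replicate number as a block called 3328 genes (20.6%), 1717 (10.6%) higher with leucine starvation and 1611 (9.98%) higher with arginine starvation. Counts of list members below are to be read against 5.25% and 4.76%, and those with the block against 10.6% and 9.98%. Leaving out 1 library called between 871 (without Wt_Arg 2) and 1258 (without Wt_Leu 1). For scale, 4772 genes differed between leucine-starved and unstarved cells (29.6%) and 6608 between arginine-starved and unstarved cells (40.9%); both counts share the 3 unstarved libraries. Genes higher with leucine starvation had a median GC content of 52.4% and those higher with arginine starvation 47.7%, against 50.0% over all genes with a transcript model. Across genes, which are not independent, GC content and the log2 fold change had a Spearman correlation of 0.16.

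The 12 largest differences toward leucine starvation were taken among called genes of at least 2 CPM whose libraries did not overlap, a separation that 14.4% of all tested genes showed in this direction and 14.7% in the other. They ran from 1.85- to 2.20-fold and held a growth factor, a zinc finger protein, RNA-binding proteins and signalling proteins. Fgf18 (chr11:33117430-33147400, GRCm38, minus strand), which encodes a secreted fibroblast growth factor, stood at 8.97, 10.5 and 10.3 CPM in leucine-starved cells, at 4.38, 4.54 and 4.62 CPM in arginine-starved cells and at 14.2, 15.6 and 16.0 CPM in unstarved cells. All 3 groups were apart, with arginine starvation lowest. Its log2 fold change between the starvations was 1.14 ± 0.11 (SE; adjusted p = 9.5e-06).

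Prpf38a (chr4:108563172-108579336, minus strand), a factor needed to activate the spliceosome, stood at 175, 205 and 190 CPM with leucine starvation and at 92.6, 103 and 102 CPM with arginine starvation. Its unstarved libraries, at 158, 177 and 173 CPM, overlapped with the leucine-starved ones. The log2 fold change between the starvations was 0.94 ± 0.07 (adjusted p = 1.1e-06). U2af1 (chr17:31647081-31658892, minus strand), the small subunit of the factor that recognises the 3′ splice site, showed the same order. It stood at 194, 180 and 157 CPM with leucine starvation, at 109, 91.0 and 86.8 CPM with arginine starvation and at 203, 163 and 158 CPM unstarved, and leucine- and arginine-starved libraries did not overlap (log2 0.89 ± 0.11, adjusted p = 0.00058).

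Ngdn, which encodes a nucleolar protein of small ribosomal subunit assembly, averaged 164 CPM against 87.6 CPM (log2 0.91 ± 0.06, adjusted p = 8e-07). Zfp771 averaged 37.7 against 18.4 CPM, Tmem109, a membrane protein, 33.9 against 17.6 CPM, and Vav2, a signalling protein, 28.2 against 15.2 CPM. In each of these 4 genes the arginine-starved cells stood lowest of the 3 groups. The other 5 were low or hard to assign: Gm10232, a pseudogene, Tekt1, 2210011C24Rik, Thsd1 and Rab26os. Thsd1 and Rab26os each overlap a gene or pseudogene on the other strand, and the strand setting of the counting is not given in the sources used here. The same limit holds for Vav2, and among genes given further on for Bcl6, Bhlhe41, Cyb5r2, Dll1, Dnaja1, Farsb, Gclm, Herpud1, Jun, Kctd19, Lars, Mccc1, Pcca, Slc7a5, Spry1 and Srebf1, and for the genotype differences of Ccni, Lcmt1 and Selenoi. The calls of Thsd1 and Rab26os were also lost without a single library, both without Wt_Leu 2 and Thsd1 without Wt_Leu 3, Wt_Arg 1 or Wt_Arg 2 (adjusted p of up to 0.29 for Thsd1 and 0.17 for Rab26os over the alternatives). By mean, the 12 genes split evenly: 6 stood in the order arginine-starved, leucine-starved, unstarved from low to high, and in the other 6 leucine-starved cells stood highest.

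The 12 largest differences toward arginine starvation ran from 1.78- to 2.47-fold. In 11 of them the group means stood, from low to high, in the order unstarved, leucine-starved, arginine-starved. Slc2a4 (chr11:69942539-69948188, minus strand), which encodes the insulin-responsive glucose transporter GLUT4, stood at 8.72, 7.29 and 7.61 CPM with arginine starvation, at 3.15, 3.30 and 3.07 CPM with leucine starvation and at 1.36, 1.15 and 1.30 CPM unstarved. The 3 groups were apart, and its log2 fold change was -1.30 ± 0.13 (adjusted p = 1.1e-05).

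Slc7a11 (chr3:49892526-50443614, minus strand), the exchanger that brings in cystine for glutamate, stood at 6.07, 6.22 and 6.29 CPM with arginine starvation and at 3.43, 2.88 and 2.71 CPM with leucine starvation. Unstarved libraries held 0.492 to 1.33 CPM. The groups were apart (log2 -1.05 ± 0.18, adjusted p = 0.0011), and several genes overlap Slc7a11 on both strands. Vldlr (chr19:27216484-27254231, plus strand), a lipoprotein receptor gene activated by ATF4, stood at 27.5, 29.9 and 29.0 CPM with arginine starvation and at 14.9, 15.1 and 14.3 CPM with leucine starvation, against 3.40 to 6.85 CPM unstarved. Again no library overlapped between the groups (log2 -0.96 ± 0.14, adjusted p = 0.00087).

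Hrk, a BH3-only gene that promotes apoptosis, averaged 34.5 CPM with arginine starvation, 18.9 CPM with leucine starvation and 5.00 CPM unstarved. Bcl6, a transcriptional repressor, averaged 5.14, 2.77 and 1.68 CPM in the same order, and Rfesd averaged 9.88, 5.56 and 4.21 CPM. Egr1, an immediate early transcription factor, was the exception in order: its leucine-starved libraries (13.4 to 16.4 CPM) lay below the unstarved (18.2 to 18.7 CPM), and its arginine-starved libraries (22.9 to 31.6 CPM) above them. Its log2 fold change between the starvations was -0.88 ± 0.11 (adjusted p = 0.00012). The remaining 5 were Cntnap3, Cyb5r2, Kctd19, Gm45847 and Pcdhga8. Calls of all 5 were lost under at least 1 alternative, that of Pcdhga8, one of a cluster of overlapping genes, without Wt_Leu 2 (adjusted p of up to 0.12).

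**Figure D2:**
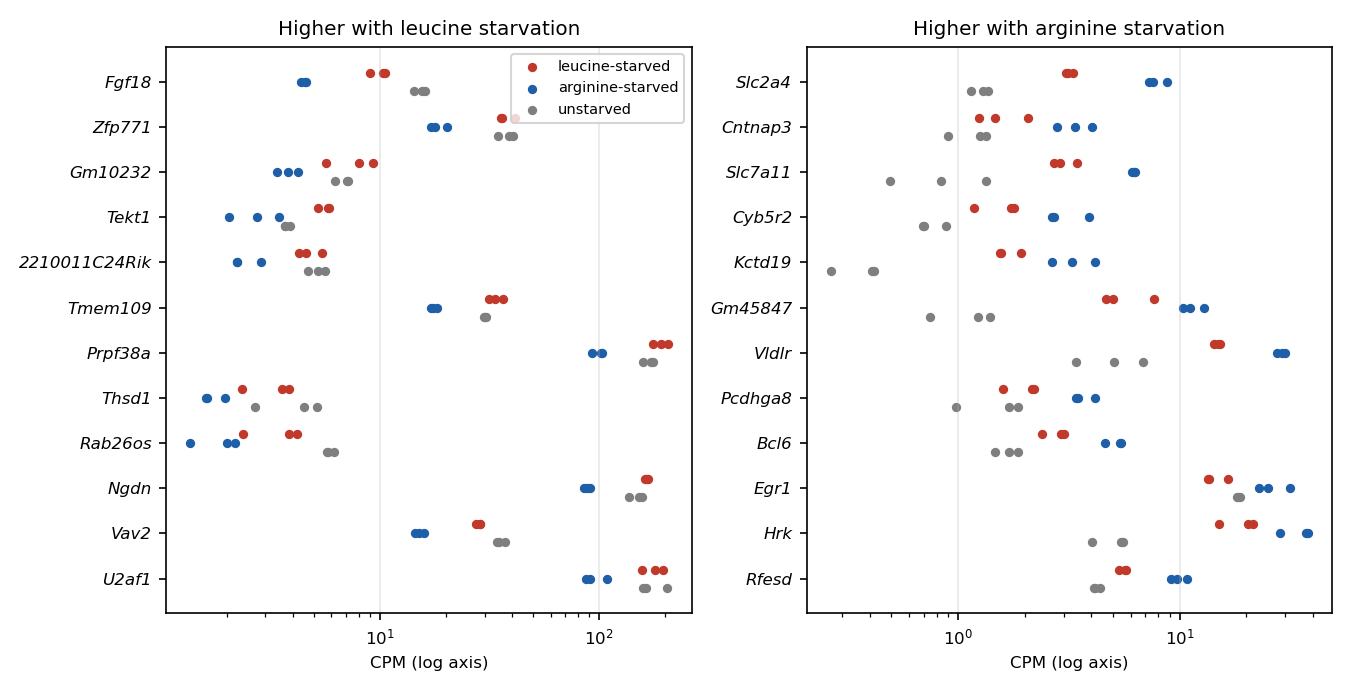
CPM on a log axis in the 9 wild-type libraries for the 12 largest differences in each direction; each point is 1 library. Red (leucine) and blue (arginine) points do not overlap in any of the 24 genes, and on the right the grey unstarved points have the lowest mean except in Egr1.

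Most ISR regulators stood above the unstarved level in both starvations, and some differed between them, in both directions. Of 22 ISR regulators, all tested, 2 were higher with leucine starvation and 4 higher with arginine starvation (9.09% and 18.2%, against 5.25% and 4.76% of all genes), and their median log2 fold change was -0.27 against 0.00 over all genes. Against unstarved cells 17 of the 22 were called higher with leucine starvation and 19 with arginine starvation (15.5% and 20.9% of all genes), comparisons that share the unstarved libraries. Over all alternatives the count of 4 ran from 2 to 8. It was 2 without Wt_Leu 1, Wt_Arg 2 or Wt_Arg 3, 7 with limma-voom and 8 with no filter on low counts or the 6 libraries alone. The count of 2 ran from 0 to 2 and was 1 without Wt_Leu 2, Wt_Leu 3, Wt_Arg 1 or Wt_Arg 2. Eif2ak4 itself stood at 27.0 to 27.8 CPM with leucine starvation and at 28.7 to 29.1 CPM with arginine starvation and did not pass the test (log2 -0.07 ± 0.07, adjusted p = 0.59). Atf4 stood at 666, 721 and 718 CPM against 608, 624 and 637 CPM. These libraries did not overlap, yet the difference did not pass (log2 0.17 ± 0.09, adjusted p = 0.30).

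Ddit3 (chr10:127290774-127296288, plus strand) encodes CHOP, a transcription factor downstream of ATF4. It stood at 57.1, 61.7 and 60.7 CPM with leucine starvation and at 32.5, 35.9 and 37.0 CPM with arginine starvation, against 11.05, 5.74 and 8.55 CPM unstarved. Every leucine-starved library was above every arginine-starved one (log2 0.77 ± 0.14, adjusted p = 0.0059), a call lost when both libraries numbered 2 or both numbered 3 were left out (adjusted p of up to 0.11). Ddit3 overlaps Mars on the other strand. Cebpb, another transcription factor of this family, was also higher with leucine starvation (log2 0.47 ± 0.12, adjusted p = 0.018).

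The 4 ISR members higher with arginine starvation were Vldlr, given above, Nupr1, Ddit4 and Cebpg. Nupr1, a stress-induced chromatin protein, averaged 54.3 against 35.2 CPM (log2 -0.62 ± 0.17, adjusted p = 0.044), and its call was lost with the replicate block (adjusted p = 0.064) and without any 1 of Wt_Leu 1, 2 or 3 or Wt_Arg 2 or 3 (up to 0.23 over all alternatives). Chac1, which degrades glutathione, stood at 159, 161 and 168 CPM with arginine starvation and at 92.3, 107 and 107 CPM with leucine starvation. The starved groups did not overlap, yet the difference did not pass, and the unstarved libraries ran from 17.6 to 37.6 CPM (log2 -0.67 ± 0.22, adjusted p = 0.11). Chac1 was called with limma-voom (adjusted p = 0.0092), with the 6 libraries alone (4.9e-05) and without robust estimation (0.015), and not in the other 15 alternatives. Trib3, which restrains ATF4 and CHOP, did not pass either (log2 -0.31 ± 0.18, adjusted p = 0.36).

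Stretches of 4 promoters are shown because their letters match an element that ATF4 is known to bind, from genes whose libraries all stood higher with arginine starvation (Chac1 without passing the test). Matches were sought in the 250 bases before a RefSeq start site (GRCm38.p6), on both strands, for TGATGNAA, a form of the amino acid response element. That motif stands in 3.45% of 32851 mouse promoter windows, and TTGCATCA, whose reverse complement is 1 form of it, in 0.791%. Capitals below mark the motif or its reverse complement. The windows are chr3:50443617-50443715 (minus strand), chr2:119351013-119351092 (plus), chr7:126625537-126625616 (minus) and chr8:94386281-94386360 (plus), each read 5′ to 3′ along its gene.
Slc7a11: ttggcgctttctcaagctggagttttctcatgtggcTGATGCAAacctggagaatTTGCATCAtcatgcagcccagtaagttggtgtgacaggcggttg
Chac1: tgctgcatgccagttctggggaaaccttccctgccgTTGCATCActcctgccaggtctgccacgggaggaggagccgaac
Nupr1: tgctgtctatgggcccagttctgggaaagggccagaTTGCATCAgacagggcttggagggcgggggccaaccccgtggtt
Herpud1: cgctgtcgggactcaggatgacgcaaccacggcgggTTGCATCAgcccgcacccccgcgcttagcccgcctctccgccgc
Slc7a11 held 2 matches in opposite orientations, starting 66 and 47 bases upstream, and the other 3 held 1 each, 193 bases upstream in Chac1, 110 in Nupr1 and 112 in Herpud1. Herpud1, which takes part in degradation of proteins from the endoplasmic reticulum, stood at 102, 102 and 109 CPM with arginine starvation and at 56.7, 68.2 and 67.5 CPM with leucine starvation (log2 -0.70 ± 0.13, adjusted p = 0.0059). A match is a description of these letters and no evidence of binding. These 4 genes were chosen after their values were seen, and Asns, Hrk and Slc7a7, which also held a match to TGATGNAA, are not shown. Fewer than 80% of the called genes had a window (77.7% and 76.4%), so the share of motifs was not compared between the directions.

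Amino acid transporter genes that differed were higher with arginine starvation, for leucine carriers as for arginine carriers, with a single exception. Among leucine transporters 2 of 6 tested were called, both higher with arginine starvation (33.3%, against 4.76% of all genes, and median log2 -0.26). That count was 1 to 3 over all alternatives, and 1 without Wt_Leu 1, Wt_Leu 2 or Wt_Arg 3. Slc7a5, the light chain of the large neutral amino acid transporter LAT1, stood at 700, 714 and 787 CPM with arginine starvation and at 592, 594 and 646 CPM with leucine starvation. Its libraries did not overlap (log2 -0.27 ± 0.07, adjusted p = 0.019), but the call was lost without Wt_Leu 1, Wt_Leu 2 or Wt_Arg 3 (adjusted p of up to 0.17). Slc43a1, which encodes LAT3, stood at 13.3, 11.9 and 11.5 CPM against 8.97, 8.26 and 8.03 CPM and kept its call under every alternative (log2 -0.54 ± 0.10, adjusted p = 0.0017). Slc3a2, the heavy chain that Slc7a5 and Slc7a11 share, overlapped between the starvations (log2 0.05 ± 0.07, adjusted p = 0.71).

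Of 9 arginine transporters, 2 were higher with arginine starvation and 1 with leucine starvation (22.2% and 11.1%, against 4.76% and 5.25% of all genes, median log2 -0.13). Slc7a1, the main cationic amino acid transporter of many cells, stood at 246, 264 and 279 CPM with arginine starvation, at 198, 209 and 212 CPM with leucine starvation and at 121 to 157 CPM unstarved. The starved groups were apart (log2 -0.35 ± 0.08, adjusted p = 0.011), a call lost without Wt_Leu 1 or Wt_Arg 3 (up to 0.12). Slc7a3, its relative, was at 272 to 283 CPM against 242 to 253 CPM and did not pass (log2 -0.17 ± 0.05, adjusted p = 0.056), but did with the replicate block (adjusted p = 0.0085). The exception was Slc25a15, the mitochondrial ornithine carrier (log2 0.20 ± 0.06, adjusted p = 0.046), which lost its call without any 1 of the 6 libraries (up to 0.38). The other arginine-higher call was Slc7a7, an exporter of cationic amino acids that overlaps Oxa1l on the other strand (log2 -0.22, adjusted p = 0.046), lost without any library but Wt_Arg 1 (up to 0.27 over the alternatives). The arginine-higher count of this list was 4 with the block, 1 with limma-voom, 0 in a fit of all 18 libraries and 0 without Wt_Leu 1 or Wt_Arg 3. Of 14 other amino acid transporters 4 were called, all higher with arginine starvation (28.6%, median log2 -0.22). They were Slc7a11, Slc6a9, Slc38a1 and Slc38a7 (2 to 4 called when 1 library was left out, 2 without Wt_Arg 3), and Slc6a9, a glycine transporter that overlaps genes on the other strand, lost its call with the block (adjusted p = 0.073) and without any library but Wt_Arg 1 (up to 0.21).

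Enzymes of amino acid synthesis differed in 5 of 18 genes, 4 of them higher with arginine starvation (22.2%; 7 with the block, 2 to 8 over all alternatives, and median log2 -0.08). Aldh18a1, which starts proline and ornithine synthesis from glutamate, stood at 156, 154 and 172 CPM with arginine starvation and at 107, 106 and 118 CPM with leucine starvation (log2 -0.54 ± 0.07, adjusted p = 7.9e-05). Cth, which makes cysteine, averaged 242 against 184 CPM (log2 -0.39 ± 0.07, adjusted p = 0.0013). Asns, asparagine synthetase and a classical ATF4 target, averaged 556 against 476 CPM (log2 -0.22 ± 0.06, adjusted p = 0.022), but lost its call without any library but Wt_Arg 2 (up to 0.18). Few transfer RNA synthetases were called. Lars, which charges leucine, and Rars, which charges arginine, did not pass (log2 -0.17 ± 0.07 and -0.22 ± 0.08, adjusted p = 0.16 and 0.075), though Rars did with the block (0.012). Of 19 cytosolic synthetases 1 was called, Farsb, and of 17 mitochondrial ones 2, Rars2 and Aars2, all higher with arginine starvation. These were 5.26% and 11.8% of the lists, against 4.76% of all genes. The block called 3 and 5, all in the same direction, where it called 9.98% of all genes. Farsb lost its call without any library but Wt_Leu 2 (up to 0.24) and Aars2 without Wt_Leu 2 or Wt_Arg 3 (up to 0.11).

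Of 23 genes of branched-chain amino acid catabolism, the route that breaks down leucine, isoleucine and valine, 3 were called, all higher with arginine starvation (13.0%; 7 with the block, and 2 to 7 over all alternatives). Slc25a44, the mitochondrial carrier for branched-chain amino acids (chr3:88410498-88425139, minus strand), stood at 203, 209 and 206 CPM with arginine starvation, at 115, 133 and 123 CPM with leucine starvation and at 69.3, 67.3 and 71.5 CPM unstarved. The 3 groups were far apart (log2 -0.73 ± 0.06, adjusted p = 3.2e-06), and the call held under every alternative. Pcca, a subunit of propionyl-CoA carboxylase, stood at 18.3, 18.2 and 17.1 CPM with arginine starvation, while leucine-starved (10.1 to 11.8 CPM) and unstarved (10.5 to 11.1 CPM) libraries overlapped. Mccc1, of the leucine-specific branch, was called at log2 -0.30, and lost its call without any library but Wt_Leu 1 (up to 0.25). Of 24 genes of arginine and polyamine metabolism 1 was called in each direction, Smox (spermine oxidase, higher with leucine starvation) and Oat (ornithine aminotransferase, higher with arginine starvation), near the background shares. Smox lost its call without any library but Wt_Arg 1 (up to 0.23) and Oat without any but Wt_Leu 1 (up to 0.26).

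Among 39 amino acid sensors and mTORC1 regulators, 2 were higher with leucine starvation and 4 higher with arginine starvation (5.13% and 10.3%; 4 and 10 with the block, 1 and 2 in a fit of all 18 libraries). Both of the former encode sensors. Castor1, the arginine sensor gene (chr11:4218225-4222409, plus strand), stood at 46.9, 44.7 and 46.0 CPM with leucine starvation, at 35.1, 31.4 and 32.3 CPM with arginine starvation and at 47.0, 46.4 and 46.7 CPM unstarved. Leucine-starved and unstarved libraries overlapped and the arginine-starved ones lay below both (log2 0.48 ± 0.07, adjusted p = 0.00021). Sesn1, of the Sestrin family of leucine sensors, averaged 11.7 against 8.89 CPM (log2 0.40 ± 0.10, adjusted p = 0.022), a call lost without Wt_Leu 1, Wt_Leu 2, Wt_Arg 2 or Wt_Arg 3 (up to 0.26). Sesn2, the best studied leucine sensor, overlapped between the groups and did not pass (log2 -0.18 ± 0.07, adjusted p = 0.14), except with the block (0.0079).

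The 4 genes higher with arginine starvation act against mTORC1 or on its Rag GTPases: Ddit4, Nprl3, Flcn and Fnip1. Ddit4, which restrains mTORC1 through the TSC complex, stood at 130, 147 and 130 CPM with arginine starvation and at 90.3, 111 and 89.7 CPM with leucine starvation, which overlapped with the unstarved libraries (95.6 to 110 CPM). Its log2 fold change was -0.49 ± 0.08 (adjusted p = 0.0016), and the call was lost in a fit of all 18 libraries (adjusted p = 0.14). Flcn and Fnip1, partners that act on the Rag GTPases, averaged 169 against 133 CPM and 99.6 against 79.6 CPM.

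Some lysosomal genes were higher with arginine starvation. Of 31 lysosome and autophagy genes 21 were not called, 9 were higher with arginine starvation and 1 with leucine starvation (29.0% and 3.23%; 13 and 1 with the block), with a median log2 of -0.15. The count of 9 was 5 without Wt_Leu 1 or Wt_Arg 3, 6 without Wt_Leu 3 or Wt_Arg 2, and 4 to 13 over all alternatives. Mcoln1, the calcium channel of the lysosome, stood at 53.5, 52.2 and 57.9 CPM with arginine starvation, at 35.99, 39.99 and 37.95 CPM with leucine starvation and at 21.6 to 25.8 CPM unstarved, with all groups apart (log2 -0.52 ± 0.08, adjusted p = 0.00047). Gla, α-galactosidase, averaged 41.0 against 29.1 CPM and Neu1, a sialidase, 39.4 against 29.0 CPM, and both kept their calls under every alternative. Others included Hexa, Ctsa, the proton pump subunits Atp6v1a and Atp6v1b2 and the autophagy gene Gabarapl1. The 1 gene higher with leucine starvation was Tfeb (log2 0.29 ± 0.07, adjusted p = 0.015), whose unstarved and leucine-starved means were 37.0 and 37.6 CPM and whose arginine-starved mean was 30.7 CPM. That call was lost without Wt_Leu 3 or Wt_Arg 2 and in a fit of all 18 libraries, where no member was called higher with leucine starvation.

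Mcoln1 and Gla are shown with the palindrome TCACGTGA, a form of the lysosomal gene element that TFEB family factors bind, in capitals. It contains CACGTG. The longer motif stands in 0.785% and the shorter in 6.02% of all promoter windows of 250 bases. The stretches are chr8:3500437-3500516 (plus strand) and chrX:134601157-134601255 (minus strand), GRCm38.p6, from RefSeq promoters.
Mcoln1: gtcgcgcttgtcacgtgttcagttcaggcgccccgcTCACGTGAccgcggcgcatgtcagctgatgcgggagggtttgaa
Gla: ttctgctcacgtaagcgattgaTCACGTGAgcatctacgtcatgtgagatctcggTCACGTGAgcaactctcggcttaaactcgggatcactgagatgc
Mcoln1 held 1 match, 46 bases upstream of the start, and Gla held 2, 228 and 195 bases upstream. Farsb, the transfer RNA synthetase gene given above, held the same palindrome, 40 bases upstream, and is not shown. Mcoln1 and Gla were chosen after their values and matches were seen, and the matches were not tested against binding.

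Growth factor signalling genes were split. Of 23 FGF and Notch pathway genes 4 were higher with leucine starvation and 2 with arginine starvation (17.4% and 8.70%, median log2 0.16), and the block called 11 and 3. The count of 4 was 3 to 6 when 1 library was left out, and the 2 never more than 3. Besides Fgf18, Fgf17 stood at 51.3, 52.2 and 55.2 CPM with leucine starvation and at 38.4, 33.4 and 35.2 CPM with arginine starvation, with the unstarved libraries (48.8 to 53.7 CPM) overlapping the former. Fgf15 and Lfng, a glycosyltransferase that modifies Notch, were the other 2. The Notch ligand gene Dll1 went the other way, at 34.0, 36.3 and 31.7 CPM with arginine starvation, 19.2, 23.2 and 21.5 CPM with leucine starvation and 7.05 to 8.41 CPM unstarved. All 3 groups of Dll1 were apart (log2 -0.67 ± 0.09, adjusted p = 0.00015).

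Of 12 genes of negative feedback on ERK, a kinase downstream of FGF receptors, 4 were higher with arginine starvation and 1 with leucine starvation (33.3% and 8.33%). The count of 4 was 1 to 3 whenever 1 library was left out, lowest without Wt_Arg 2, and the count of 1 was 0 without Wt_Leu 2, Wt_Leu 3, Wt_Arg 1 or Wt_Arg 2. Dusp6, an ERK phosphatase, stood at 175, 161 and 161 CPM with arginine starvation and at 109, 121 and 112 CPM with leucine starvation (log2 -0.54 ± 0.06, adjusted p = 4.9e-05). Dusp4, Spry1 and Spred3 were the others, and Dusp4 lost its call without Wt_Leu 3 or Wt_Arg 2 and Spry1 without Wt_Arg 2 (up to 0.088). Of 22 immediate early genes 4 (Egr1, Jun, Maff and Dusp1) were higher with arginine starvation and 3 (Ier2, Myc and Klf10) with leucine starvation. These were 18.2% and 13.6%, against 4.76% and 5.25% of all genes. Without 1 library the counts were 2 to 4 and 3, the former lowest without Wt_Arg 1. Jun lost its call without Wt_Leu 2, Wt_Leu 3 or Wt_Arg 1 (up to 0.15). Bhlhe41, a circadian repressor, stood at 61.9, 72.1 and 55.1 CPM with arginine starvation, at 30.4, 43.9 and 34.0 CPM with leucine starvation and at 4.39 to 4.63 CPM unstarved, with no overlap (log2 -0.80 ± 0.12, adjusted p = 0.0015).

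**Figure D3:**
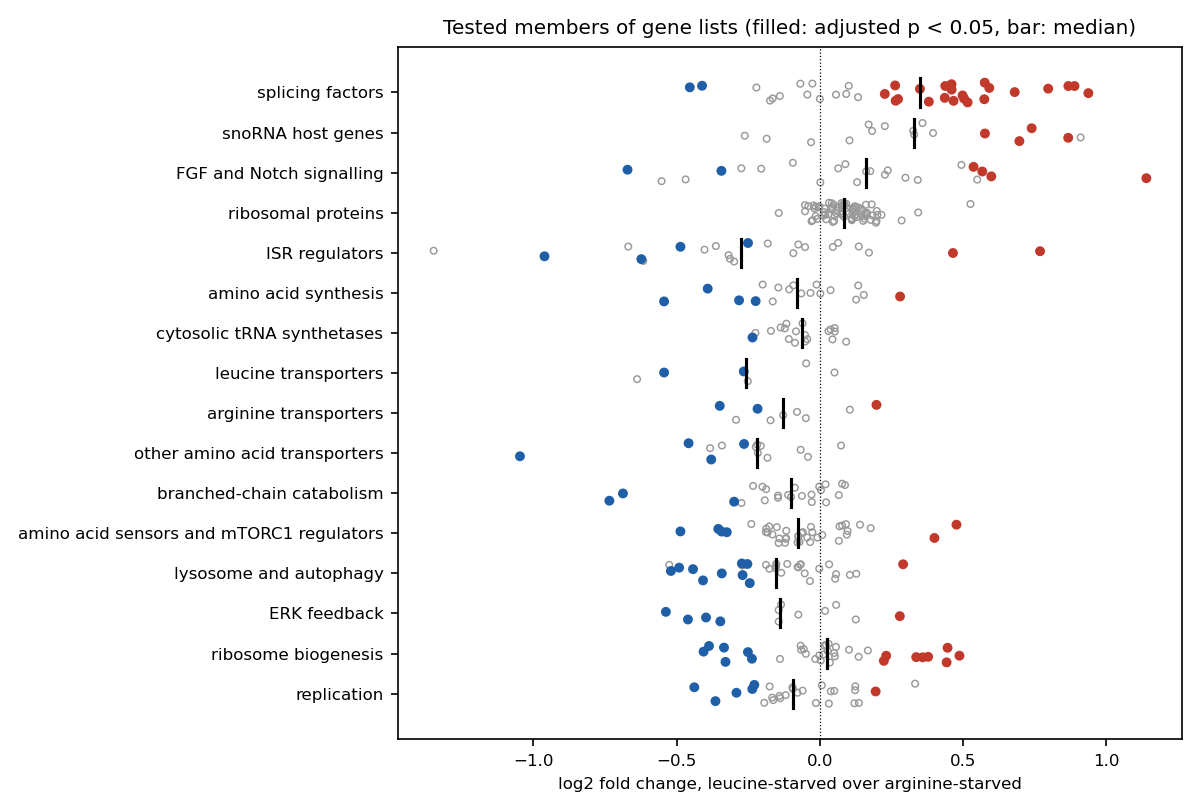
Log2 fold change, leucine-starved over arginine-starved, for the tested members of 16 gene lists; each point is 1 gene, filled where its adjusted p was under 0.05, and the bar is the list's median. Splicing factors and snoRNA host genes lie mostly to the right (medians 0.35 and 0.33), leucine transporters and lysosomal genes mostly to the left (-0.26 and -0.15).

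Splicing factors were mostly higher with leucine starvation. A list of 38 genes of serine/arginine-rich proteins, their kinases and partners was written after the values of U2af1, Prpf38a and Rbm10 were known, and its counts are a description. Of 37 tested, 23 were higher with leucine starvation and 2 higher with arginine starvation (62.2% and 5.41%, median log2 0.35). Without U2af1, Prpf38a and Rbm10, 20 of 34 were higher with leucine starvation and 2 with arginine starvation (median log2 0.27). The count of 23 ran from 21 to 23 when 1 library was left out, and the median from 0.32 to 0.36 over all alternatives.

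Luc7l3, a protein of the U1 particle, stood at 267, 266 and 280 CPM with leucine starvation, at 136, 155 and 154 CPM with arginine starvation and at 261, 261 and 248 CPM unstarved (log2 0.87 ± 0.06, adjusted p = 8e-07). Leucine-starved libraries lay just above the unstarved ones and arginine-starved libraries well below. Srsf7 stood at 514, 572 and 495 CPM, 315, 355 and 316 CPM, and 461, 470 and 460 CPM in the same order (log2 0.68 ± 0.07, adjusted p = 1.2e-05). Among the 23 genes arginine-starved cells had the lowest mean in 21, with the unstarved mean highest in 10 of them and the leucine-starved mean highest in 11. The other 2 were Tra2a and Tra2b, whose unstarved mean was the lowest. Against the pattern, Rbm39 stood at 632, 700 and 636 CPM with arginine starvation and at 469, 511 and 457 CPM with leucine starvation (log2 -0.45 ± 0.07, adjusted p = 0.00095), and Rbm5 averaged 71.0 against 53.4 CPM (log2 -0.41 ± 0.06, adjusted p = 0.00062). Luc7l3, Srsf7, Rbm39 and Rbm5 were chosen after their values were seen. Many splicing factor genes carry exons that target the transcript for decay, and counts per gene do not show which isoform was present.

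**Figure D4:**
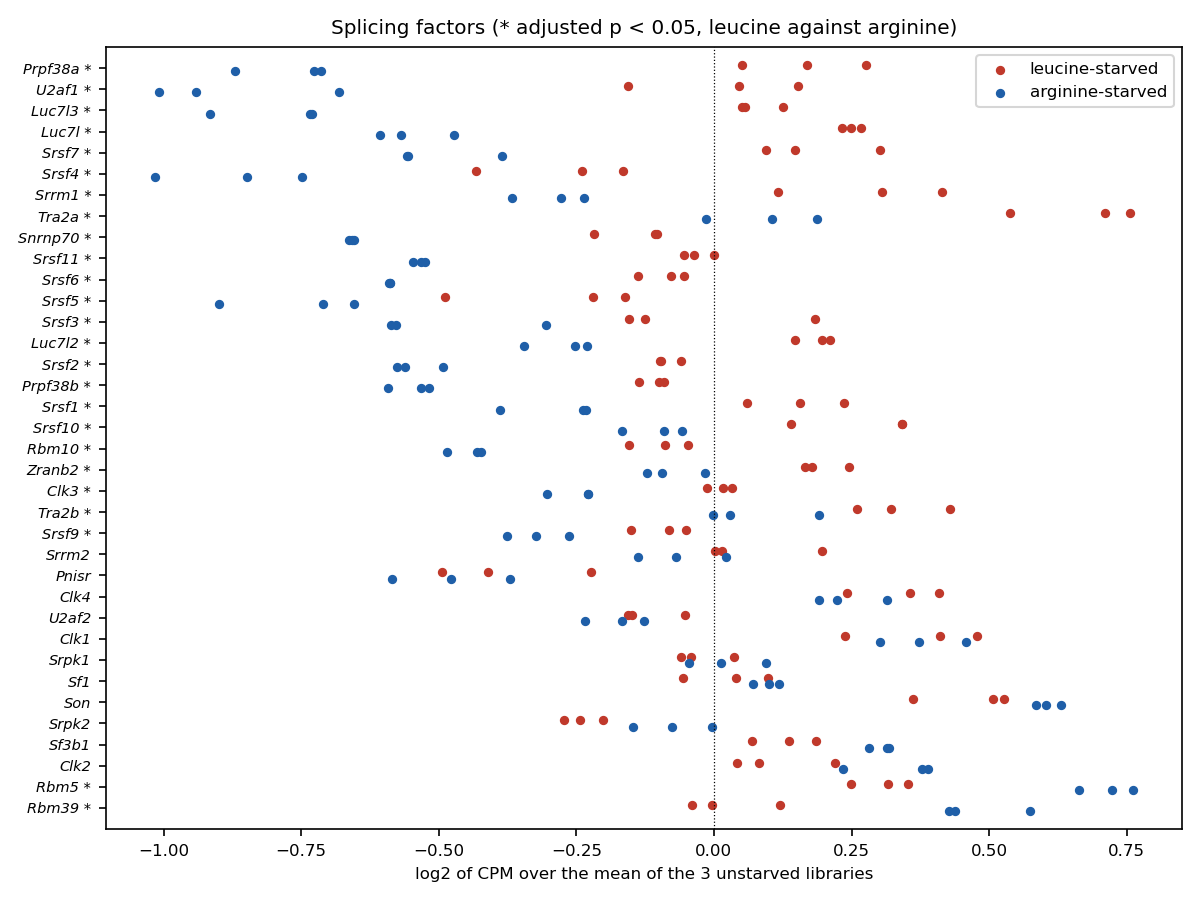
Level of 36 splicing factors relative to the mean of the 3 unstarved libraries (log2, each point 1 library; Srsf12, under 1 CPM, is left out); an asterisk marks the 25 genes that differed between the starvations. In 21 of the 23 genes that were higher with leucine starvation, the blue arginine points have the lowest mean of the 3 groups.

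Host genes of small nucleolar RNAs, noncoding transcripts whose introns yield RNAs that guide ribosomal RNA modification, also lay mostly higher with leucine starvation. Of 16 tested, 4 were higher with leucine starvation (25%, against 5.25% of all genes, median log2 0.33). With the block 8 were higher with leucine starvation and 2 with arginine starvation, against 10.6% and 9.98% of all genes. Dancr stood at 13.6, 12.7 and 10.7 CPM with leucine starvation, at 7.77, 7.05 and 7.35 CPM with arginine starvation and at 25.8 to 30.9 CPM unstarved. Both starvations lay below the unstarved level, arginine starvation farther (log2 0.74 ± 0.11, adjusted p = 0.0004). Snhg12 averaged 33.8 against 20.8 CPM (log2 0.70 ± 0.11, adjusted p = 0.00061). Snhg3, at log2 0.87, lost its call without Wt_Leu 1, Wt_Leu 2, Wt_Arg 1 or Wt_Arg 3 (up to 0.13), and the count of 4 ran from 2 (without Wt_Leu 2) to 6. These genes overlap their small nucleolar RNAs, and Dancr and Snhg3 also have a gene on the other strand.

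Pluripotency and lineage genes parted little in number. Of 19 naive pluripotency genes 2 were called in each direction, Zfp42 and Klf2 higher with leucine starvation, Klf5 and Tbx3 higher with arginine starvation, each 10.5% of the list (5 and 3 with the block). Klf5 stood at 292, 324 and 332 CPM with arginine starvation and at 216, 236 and 245 CPM with leucine starvation (log2 -0.44 ± 0.07, adjusted p = 0.00072). Of 21 primed and lineage markers 2 were likewise called in each direction (9.52% of the list each, and 4 and 3 with the block). The leucine-higher count fell to 1 without Wt_Leu 1, Wt_Leu 2, Wt_Arg 2 or Wt_Arg 3, and the arginine-higher count was 1 without Wt_Leu 3 or Wt_Arg 2 and 3 without Wt_Leu 2. Gata2, a transcription factor of blood and trophoblast, had the largest difference, with 21.0 CPM with arginine starvation against 12.4 CPM with leucine starvation and 5.57 CPM unstarved (log2 -0.74 ± 0.13, adjusted p = 0.0019). Lipid synthesis genes that differed included Srebf1, the factor of fatty acid synthesis genes, at 91.5, 96.5 and 96.1 CPM with leucine starvation and 62.6, 67.9 and 65.2 CPM with arginine starvation (log2 0.54 ± 0.06, adjusted p = 5.1e-05). Insig1, which holds back sterol synthesis, was higher with arginine starvation (98.3 against 65.3 CPM), a call lost when both libraries numbered 1 or both numbered 3 were left out (up to 0.065).

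The same contrast was made in cells without GCN2 to see which differences changed with the genotype. Eif2ak4 stood at 4.07 to 5.59 CPM in the leucine-starved and at 4.41 to 6.33 CPM in the arginine-starved Gcn libraries, below every wild-type library. Total counts were 27.5, 30.7 and 38.8 M in the leucine-starved and 22.4, 24.1 and 14.8 M in the arginine-starved Gcn libraries. Here every leucine-starved library was the larger, unlike in wild type. The part of depth in the Gcn contrast and in the comparison of genotypes was not tested. In cells without GCN2, 1395 of 16369 genes differed between the starvations (8.52%). Of these, 760 were higher with leucine starvation (4.64% of the genes tested) and 635 higher with arginine starvation (3.88%). Scaling by library size alone turned that split to 610 and 781. Of the 24 genes with the largest wild-type differences, 11 of 12 higher with leucine starvation and 5 of 12 higher with arginine starvation were called in the same direction there, and 1, Cntnap3, had a fold change of opposite sign (log2 0.01). A difference of the contrast between genotypes was tested directly. It was called for 10 of 16924 genes (0.0591%; 2, or 0.0118%, positive and 8, or 0.0473%, negative for wild type minus Gcn), with 1003 at an unadjusted p under 0.05 and 79 called by DESeq2, so for most genes no dependence on GCN2 was detectable with 3 libraries a group. With the replicate block 429 were called.

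Rbm10, a splicing regulator on the X chromosome, was the gene whose difference held under all 19 alternatives. In wild-type cells it stood at 79.3, 83.0 and 85.4 CPM with leucine starvation and at 65.5, 63.0 and 65.8 CPM with arginine starvation. In cells without GCN2 it stood at 87.4, 79.3 and 80.2 CPM with leucine starvation but at 31.6, 26.6 and 28.3 CPM with arginine starvation, while their unstarved libraries held 82.9 to 89.8 CPM. The log2 fold change between the starvations was thus 0.35 ± 0.06 in wild type and 1.51 ± 0.09 without GCN2, a difference of -1.16 ± 0.11 (adjusted p = 6.2e-06). Rbm10 overlaps Ndufb11 on the other strand. Gpt2, which makes alanine from glutamate's amino group, took opposite signs. In wild type its libraries held 178.5 to 196.5 CPM with arginine starvation and 143.9 to 157.5 CPM with leucine starvation (log2 -0.32, adjusted p = 0.052, not called). Without GCN2 they held 31.1 to 31.5 CPM and 42.6 to 45.8 CPM in the same order (difference -0.81 ± 0.15, adjusted p = 0.038). The call for Gpt2 was lost without most single libraries (adjusted p of up to 0.15).

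**Figure D5:**
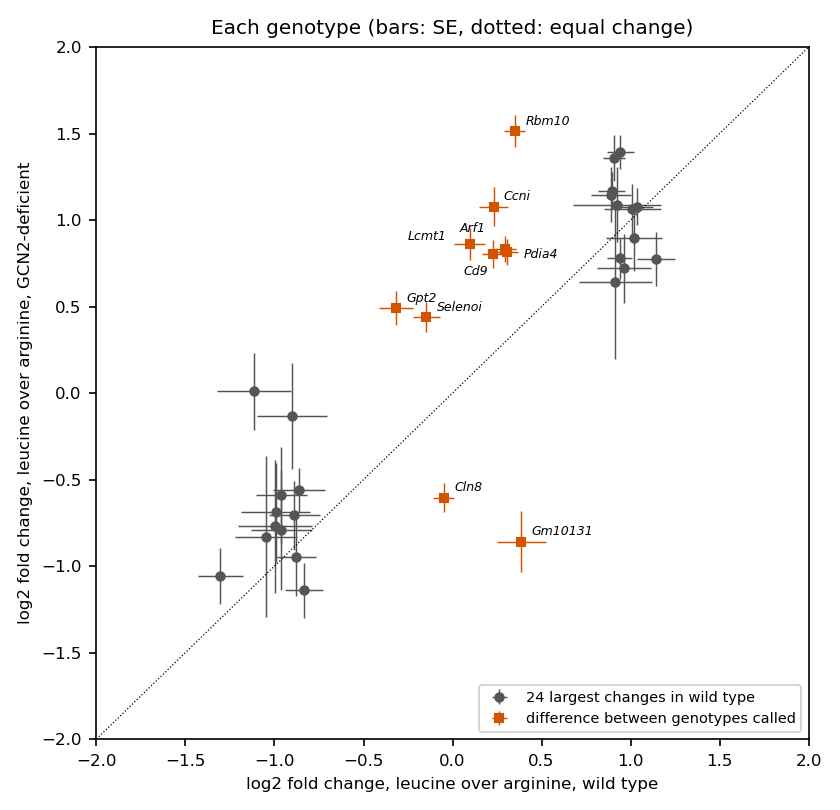
Log2 fold change of leucine over arginine starvation in wild-type (horizontal) and GCN2-deficient cells (vertical), with standard errors. Grey points are the 24 largest wild-type differences and orange squares the 10 genes whose fold change differed between genotypes; Rbm10 lies farthest above the dotted line of equal change.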

How the data were processed

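The authors deposited raw counts of reads per gene for every wild-type and every Gcn library, made from paired reads of directional poly(A) libraries. Per the submitters' processing notes the tools included bcl2fastq, FastQC 0.11.7, STAR 2.7.4a, HTSeq, R 4.0.3, DESeq 1.30.1 and DESeq2, with the mouse build GRCm38. Which gene annotation was counted, and with which strand option, is not given in the sources used here. Of 55471 gene identifiers 55230 had a symbol in GENCODE vM21. The normalized tables were not used.

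Counts of the 9 wild-type libraries (or the 9 Gcn libraries, or all 18 for the difference between genotypes) were fitted in R 4.3.3 with edgeR 4.0.16 (filterByExpr, TMM scaling, robust quasi-likelihood test, Benjamini-Hochberg adjustment, call at an adjusted p under 0.05) and limma 3.58.1. The scripts were tested on simulated data. CPM used TMM-scaled library sizes, and the standard error of a log2 fold change is its size divided by the square root of F. DESeq2 1.42.0, limma-voom and other filters, scalings and sets of libraries were alternatives. Wild-type leucine- and arginine-starved libraries of the same number deviated together from their group means (correlations 0.623, 0.524 and 0.66 over 9577 genes, against -0.551 to -0.0432 between unlike numbers), as did the Gcn ones (0.799, 0.834 and 0.775). Deviations within a group cancel out, so positive values for like numbers bring negative ones between unlike numbers. The number was used as a block in alternative fits only, and the main test took the libraries as unpaired. Fits that left out libraries also had no block. Named calls lost in those fits were kept with the block and all wild-type libraries, except those of Nupr1 and Slc6a9. The pairing in the block comes from the data, not the labels.

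The members and gene lists were chosen with earlier results of these data known. Genes are named by rule: the 12 called genes per direction with the largest change, at least 2 CPM and no overlap, the 3 called members of each list with the largest change, a set of 18 amino acid response genes, and the 5 largest genotype differences per direction. Other list members are named to complete a count or as examples, chosen after their values were seen. Promoters were matched by symbol to RefSeq (GRCm38.p6). A planned check of protein amino acid content was not run.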

Additional observations from a re-analysis of the deposited data

Results flagged for a closer look

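The log2 fold change of leucine over arginine starvation differed between wild-type and GCN2-deficient cells in 10 genes by the test of the difference itself (edgeR's quasi-likelihood test, Benjamini-Hochberg adjusted over 16924 genes, 3 libraries a group). Values are wild type minus Gcn. Gm10131 had the largest positive difference, 1.248 (log2 0.39 in wild type and -0.86 in Gcn cells, adjusted p = 0.038), and Cln8, of the endoplasmic reticulum, the other, 0.5569 (-0.05 and -0.60, adjusted p = 0.033). Negative differences were -1.161 for Rbm10, -0.8453 for Ccni (0.23 and 1.08), -0.8077 for Gpt2 and -0.7611 for Lcmt1 (0.10 and 0.86). Selenoi followed with -0.5871, Cd9, a tetraspanin, with -0.5742, Arf1, a GTPase of the Golgi, with -0.5334 and Pdia4, a chaperone of the endoplasmic reticulum, with -0.5083 (0.30 and 0.81). Ccni, Lcmt1, Rbm10 and Selenoi overlap a gene on the other strand. Rbm10 kept its call in all 19 alternatives. Each of the other 9 kept it with the replicate block and lost it in 8 to 13 alternatives, with adjusted p of up to 0.17 for Gm10131 and Pdia4.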

How the results depend on the processing

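The 1615 calls between the starvations in wild type became 3328 with the replicate block, 3264 with the block and a GC correction and 916 in a fit of all 18 libraries. Leaving out 1 library gave 871 to 1258, and leaving out the 2 libraries of a number, an alternative added after seeing the data, gave 439 to 735. DESeq2, limma-voom, no filter, library size alone, the 6 libraries alone and no robust estimation gave 1546 to 1794. In Gcn cells the 1395 calls became 4362 with the block and 710 to 1082 without 1 library. The 10 genotype differences became 79 with DESeq2, 61 without a filter, 429 with the block, 669 with the block and GC correction, 30 without the 3 Gcn libraries numbered 1 (added after seeing the data), and 1 to 24 without 1 library. The cause of these shifts was not tested. Of 105 called named genes 49 kept their call in every alternative. The block ended the calls of Nupr1 and Slc6a9, added those of Ccni, Gm10131, Rars, Sesn2 and Slc7a3, and changed no other call among the named genes. The wild-type log2 fold change of Lcmt1, not called, ran from -0.007672 (without Wt_Leu 2, a changed sign) to 0.1919 when libraries were left out. The share of counts in the 10 most abundant genes, leucine minus arginine, was -0.1193 points and turned to 0.01414 without mitochondrial transcripts and Gm42418. List members outside the named genes were not followed gene by gene through the alternatives. With 3 libraries a group, differences that did not pass are not shown to be absent.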

Other observations

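Genes of ribosome production differed in both directions. Of 34 ribosome biogenesis genes 8 were higher with leucine starvation and 6 with arginine starvation (23.5% and 17.6%, against 5.25% and 4.76% of all genes), with a median log2 of 0.02, and the count of 6 was 4 without any 1 library but Wt_Arg 3. Nolc1, a nucleolar chaperone of small nucleolar particles, stood at 596, 634 and 679 CPM with leucine starvation and at 455, 441 and 465 CPM with arginine starvation (log2 0.49 ± 0.06, adjusted p = 7.3e-05), without overlap. Nop14 and Wdr43, of the small subunit processome, were higher with arginine starvation (log2 -0.41 and -0.39). None of 79 ribosomal protein genes was called by edgeR, DESeq2 or limma-voom (4 and 0 at an unadjusted p under 0.05 with edgeR). Their log2 fold changes were positive in 66 and negative in 13, with a median of 0.08 (0.01 to 0.16 over all alternatives). With the replicate block 10 were higher with leucine starvation and 1 with arginine starvation, where it called 10.6% and 9.98% of all genes. Among 37 translation factors, Eif5, which acts on the GTP bound by eIF2, stood at 395, 388 and 373 CPM with arginine starvation and at 267, 249 and 228 CPM with leucine starvation, below the unstarved libraries in the latter and overlapping them in the former (log2 -0.64 ± 0.07, adjusted p = 4.9e-05).

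Some cell cycle and stress genes differed, in both directions. Aurkb, the kinase of the chromosomal passenger complex, stood at 82.8, 79.0 and 93.9 CPM with leucine starvation and at 56.13, 53.04 and 55.7 CPM with arginine starvation (log2 0.63 ± 0.07, adjusted p = 3e-05). Of 19 mitosis genes 2 were called in each direction, 10.5% of the list each, against 5.25% and 4.76% of all genes. Those higher with arginine starvation numbered 0 without Wt_Leu 3 and 1 without Wt_Leu 1 or any 1 arginine-starved library. Of 27 replication genes 5 were higher with arginine starvation, led by Gins1 (log2 -0.44), and 1 with leucine starvation (18.5% and 3.70%, against 4.76% and 5.25% of all genes). The block called 9 and 3, against 9.98% and 10.6% of all genes. The count of 5 was 3 without Wt_Leu 1 or Wt_Arg 1 and 2 in a fit of all 18 libraries, and the count of 1 was 0 without any library but Wt_Leu 1. Of 17 NRF2 antioxidant genes 1 was called in each direction (5.88% of the list each). Hmox1, heme oxygenase, was higher with arginine starvation (log2 -0.51 ± 0.06, adjusted p = 3.9e-05), and its libraries in both starvations lay below the unstarved ones. Gclm was higher with leucine starvation (log2 0.30 ± 0.06, adjusted p = 0.0040), a call lost when both libraries numbered 2 or both numbered 3 were left out (up to 0.084). Of 16 heat shock genes 1 was likewise called in each direction (6.25% each). Hspa8, a constitutive chaperone, was higher with arginine starvation (log2 -0.46 ± 0.06, adjusted p = 0.00011). Dnaja1 was higher with leucine starvation (log2 0.27 ± 0.07, adjusted p = 0.023), a call lost without Wt_Leu 1, Wt_Leu 2, Wt_Arg 2 or Wt_Arg 3 (up to 0.29). Of 22 p53 targets 4 were higher with leucine starvation and 1 with arginine starvation (18.2% and 4.55%). The count of 4 was 1 to 3 when 1 library was left out. Foxo3, a transcription factor restrained by AKT, stood at 144, 147 and 150 CPM with arginine starvation and at 102, 110 and 113 CPM with leucine starvation (log2 -0.44 ± 0.06, adjusted p = 0.00033).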
